A study of Mus musculus with 8 samples.

Results

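The 10 genes described here encode the core of TGF-beta signalling in the liver, namely the ligands Tgfb1, Tgfb2 and Tgfb3, the receptors Tgfbr1 and Tgfbr2, the signal carriers Smad2, Smad3 and Smad4, and the inhibitors Smad7 and Bambi. They were chosen by symbol and not by any measured value, and all 10 were found among the 17810 genes of the deposited count table. RNA-Seq had been performed on whole livers of male mice, 4 WT and 4 HKO, with 1 library per liver. All 8 mice were switched at 8 weeks of age to CD-HFD, a fat-rich chow without added choline, and stayed on it for 3 months, a regimen that induces simple steatosis, and the labels give an age of 5 months. HKO mice carry loxP-flanked miR-33 alleles and a Cre recombinase driven by the albumin promoter, which directs the deletion of miR-33 to hepatocytes. Its level in other liver cells was not measured here. WT mice are their littermates, and the labels do not say whether WT mice carry loxP alleles. Mir33 itself was not analysed here, so each library's genotype rests on its label.

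TGF-beta ligands are secreted in a latent form and, once released, bind TGFBR2, which recruits and phosphorylates TGFBR1. TGFBR1 in turn phosphorylates SMAD2 and SMAD3, which enter the nucleus together with SMAD4 and control transcription, while SMAD7 and the pseudoreceptor BAMBI restrain the receptors. In liver disease this pathway is best known for driving hepatic stellate cells, the vitamin A-storing pericytes of the sinusoid, to produce collagen, and it also restrains hepatocyte growth. The comparison between HKO and WT livers asks whether the transcripts of this core differ when hepatocytes lack miR-33.

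The libraries held 12174352 to 18735791 estimated counts, and levels are given as CPM, that is, counts divided by the library total after TMM scaling, a correction for differences in library composition. In these libraries 3 counts, the smallest level taken as detected, correspond to 0.149 to 0.255 CPM, a limit that covers counting error only. The liver label held in every library: the 8 hepatocyte markers summed to 70620 to 124100 CPM, led by Alb, which encodes albumin. HKO replicate 3 stood apart from the other HKO livers, with a chi-square per gene of 106.3 to 119.8 against each of them, compared with 18.4 to 41.1 for the other pairs within a genotype. HKO replicate 2 held 16.5 CPM of the bile duct gene Epcam, against 0.328 to 1.02 CPM in the other 7 livers. The libraries of each genotype have consecutive order numbers, so place in that order and genotype cannot be told apart.

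A microRNA represses transcripts through short matches to its seed, bases 2 to 8, in their 3′UTR. The mature miR-33-5p (RefSeq, GRCm38.p6, chromosome 15, 82198127 to 82198147, plus strand) is shown because it is the molecule removed in HKO hepatocytes, with its seed in capitals:
miR-33-5p: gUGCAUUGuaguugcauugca
Matches were sought as CAATGCA, the complement of bases 2 to 8, or AATGCAA, the complement of bases 2 to 7 followed by an A. That A is not paired with the seed, and the 2 forms overlap in an 8-base match. The search covered the transcript strand of the longest 3′UTR that a gene's annotation holds. Of the 10 genes, Tgfb2, Tgfbr1 and Smad7 held 1 match each. Those of Tgfb2 and Tgfbr1 are shown with 10 bases before and 9 after, the match in capitals, together with those of Ski and Skil, co-repressors of the Smads of which Ski is discussed by the study as a miR-33 target:
Tgfb2, 7 bases, chr1:186623390-186623396, minus strand: ctgaggtgtgAATGCAAggagaattt
Tgfbr1, 8 bases, chr4:47414896-47414903, plus strand: aaaatggaagCAATGCAAataaacaac
Ski, 8 bases, chr4:155155739-155155746, minus strand: ttctgacgtgCAATGCAAaagggacat
Skil, 7 bases, chr3:31122284-31122290, plus strand: ataattttgcCAATGCAtatagtttt
These coordinates are on GRCm38.

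The match of Smad7 lies on chromosome 18 from 75395797 to 75395803 and covers 7 bases. Like that of Tgfb2, it pairs with bases 2 to 7 and ends in the added A. No match was found in the longest 3′UTR of Tgfb1, Tgfb3, Tgfbr2, Smad2, Smad3, Smad4 or Bambi, which says only that these letters are not there. Of all tested genes with a 3′UTR of at least 50 bases, 1866 of 11514, or 16.2%, held a match. Among genes whose 3′UTR length is within 10% of that of Tgfbr1 the share was 39.4%, for Tgfb2 it was 24.8% and for Smad7 16.4%.

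No gene of the TGF-beta core passed the test between the genotypes, and the levels of all 10 overlapped. All 10 genes passed the filter on low counts, and 0 of them were called, that is, passed a Benjamini-Hochberg adjusted p of 0.05 in the quasi-likelihood test of edgeR, against 5.15% of the 12395 genes tested, 1.71% called higher and 3.44% called lower in HKO livers. DESeq2 and limma-voom also called 0 of the 10, against 8.18% and 4.86% of all genes, and so did edgeR without HKO replicate 2 or HKO replicate 3. At an unadjusted p under 0.05, edgeR picked Tgfbr2 and Smad7, or 2 of 10, against 19.6% of all genes. In no gene of the 10 were the HKO values separate from the WT values, whereas 12.5% of all genes had no overlap. The fold change was above 0 on the log2 scale in 4 genes and below 0 in 6, with a median of -0.10, and over all genes the median was 0.01 and 48.4% lay below 0. None of the genes has a fractional value in any liver or a listed neighbour that overlaps it.

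**Figure D1:**
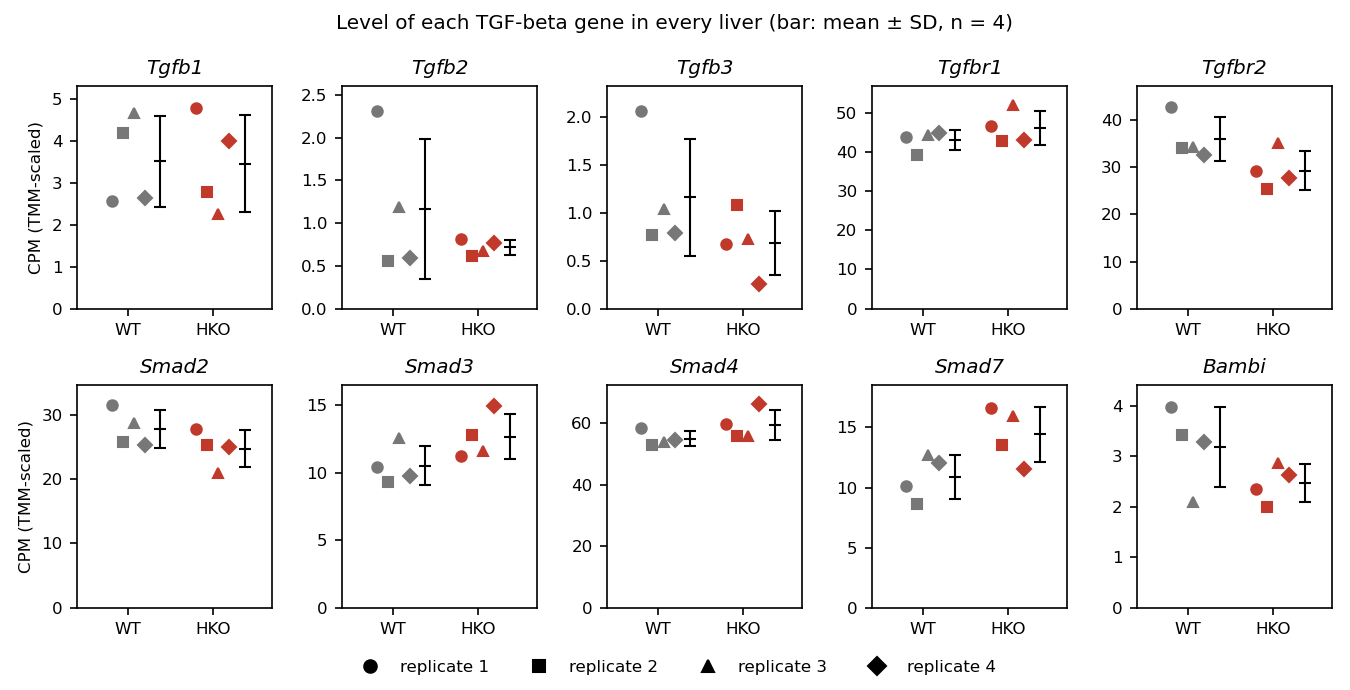
Level of each of the 10 TGF-beta genes in every liver, in CPM on axes that start at 0, with WT livers in grey, HKO livers in red, a symbol for each replicate number and the mean ± SD (n = 4) in black. The HKO points overlap the WT points in all 10 genes, and Tgfb2 and Tgfb3 have a WT liver, replicate 1, at 2.31 and 2.06 CPM, above the other livers.

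Per kilobase of exon, the ligands Tgfb2 and Tgfb3 were the scarcest transcripts of the core. Tgfb1 (chromosome 7, 25687002 to 25705078, plus strand), the ligand made by macrophages and other non-parenchymal cells, measured 2.56, 4.18, 4.67 and 2.63 CPM in WT replicates 1 to 4 and 4.79, 2.78, 2.25 and 3.997 CPM in HKO replicates 1 to 4. Both genotypes thus held a high pair and a low pair of livers and covered the same range. Its mean was 3.51 ± 1.078 CPM in the 4 WT livers and 3.45 ± 1.15 CPM in the 4 HKO livers (SD), which gives a log2 fold change of -0.04 with a standard error (SE) of 0.29 and an edgeR adjusted p of 0.961. The 95% interval of the fold ran from 0.629 to 1.5, so no change, a fall or a rise within that range would each be compatible with these livers. The sign of the difference turned when WT replicate 2 or 3 or HKO replicate 2 or 3 was left out.

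Tgfb2 (chromosome 1, 186622792 to 186705990, minus strand) and Tgfb3 (chromosome 12, 86056743 to 86079042, minus strand) encode the other ligands of the family. Tgfb2 measured 2.31, 0.558, 1.19 and 0.591 CPM in the WT livers and 0.809, 0.617, 0.675 and 0.765 CPM in the HKO livers. These levels rest on 8 to 28 counts per liver, and for the 8 counts of WT replicate 2 the 95% Poisson interval of the level runs from 0.241 to 1.099 CPM. The WT livers were spread widely, with a coefficient of variation of 70.5%, and enclosed the HKO livers, which varied by 12.1%.
Tgfb3 measured 2.06, 0.767, 1.04 and 0.788 CPM in the WT livers and 0.674, 1.0797, 0.732 and 0.255 CPM in the HKO livers. The lowest of these, HKO replicate 4, is 3 counts. WT replicate 1 was the highest liver for both genes. The log2 fold change was -0.67 for Tgfb2 (SE 0.47, edgeR adjusted p = 0.484) and -0.72 for Tgfb3 (SE 0.46, edgeR adjusted p = 0.437). Without WT replicate 1 the values were -0.15 and -0.33. The 95% intervals of the fold, 0.311 to 1.28 for Tgfb2 and 0.302 to 1.22 for Tgfb3, are the widest among the 10 genes.

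Both receptors were well measured. Tgfbr1 (chromosome 4, 47353222 to 47414925, plus strand), the type I receptor kinase that phosphorylates SMAD2 and SMAD3 and the gene with the 8-base match printed above, measured 43.7, 39.2, 44.3 and 44.7 CPM in WT livers and 46.7, 42.8, 52.0 and 42.9 CPM in HKO livers. HKO replicates 1 and 3 were above every WT liver and HKO replicates 2 and 4 were among them. The means were 43.0 ± 2.56 and 46.1 ± 4.30 CPM (SD, n = 4 each), or a log2 fold change of 0.10 (SE 0.09, edgeR adjusted p = 0.580), and the 95% interval of the fold was 0.940 to 1.23.

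Tgfbr2 (chromosome 9, 116087695 to 116175364, minus strand), the type II receptor that binds the ligand first, measured 42.9, 34.1, 34.3 and 32.6 CPM in WT livers and 29.1, 25.3, 35.1 and 27.6 CPM in HKO livers. The HKO livers were below every WT liver except for replicate 3, and WT replicate 1 was far above the other WT livers. The means were 36.0 ± 4.65 and 29.3 ± 4.17 CPM (SD, n = 4 each), or a log2 fold change of -0.29 (SE 0.12, edgeR unadjusted p = 0.0300 and adjusted p = 0.198). Without WT replicate 1 the log2 fold change was -0.20 (adjusted p = 0.458), and without HKO replicate 3, the HKO library that stood apart, it was -0.39 (adjusted p = 0.0886). Its lowest adjusted p under any setting tried was 0.0739, with total count scaling, the lowest among the 10 genes.

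Of the signal carriers, Smad4 was, per kilobase of exon, the most abundant transcript of the core. Smad2 (chromosome 18, 76241701 to 76311748, plus strand), a receptor-activated Smad, measured 31.5, 25.7, 28.7 and 25.2 CPM in WT livers and 27.8, 25.3, 20.9 and 24.9 CPM in HKO livers. HKO replicate 3 was the lowest liver and the remaining livers overlapped. Its log2 fold change was -0.17 (SE 0.11, edgeR adjusted p = 0.450). Smad3 (chromosome 9, 63646767 to 63757995, minus strand), the other receptor-activated Smad and the one that binds DNA directly, measured 10.4, 9.34, 12.6 and 9.78 CPM in WT livers and 11.3, 12.8, 11.7 and 15.0 CPM in HKO livers. Its HKO livers were above 3 of the 4 WT livers, and WT replicate 3 lay among them. The log2 fold change of Smad3 was 0.26 (SE 0.14, edgeR adjusted p = 0.328), of the opposite sign to that of Smad2, and neither passed the threshold.

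Smad4 (chromosome 18, 73634791 to 73703792, minus strand), the common partner of the receptor-activated Smads, measured 58.5, 52.9, 54.0 and 54.4 CPM in WT livers and 59.9, 55.99, 55.8 and 66.3 CPM in HKO livers. The HKO livers were above 3 of the 4 WT livers. The means of 54.9 ± 2.45 and 59.5 ± 4.92 CPM (SD, n = 4 each) gave a log2 fold change of 0.12 (SE 0.08, edgeR adjusted p = 0.480). This was the steadiest gene of the core, with a coefficient of variation of 4.46% among WT and 8.27% among HKO livers.

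Smad7 and Bambi, the inhibitors, had differences of opposite sign. Smad7 (chromosome 18, 75367365 to 75395935, plus strand), which targets TGFBR1 for degradation and is itself induced by TGF-beta, measured 10.2, 8.65, 12.7 and 12.0 CPM in WT livers and 16.6, 13.6, 16.0 and 11.6 CPM in HKO livers. HKO replicates 1, 2 and 3 were above every WT liver and HKO replicate 4 lay among them. The means were 10.9 ± 1.84 and 14.4 ± 2.31 CPM (SD, n = 4 each), or a log2 fold change of 0.41 (SE 0.15, edgeR unadjusted p = 0.0213 and adjusted p = 0.166), with a 95% interval of the fold of 1.05 to 1.67. Leaving out each liver in turn kept it between 0.31 and 0.50, with adjusted p from 0.112 to 0.381.
Bambi (chromosome 18, 3507957 to 3516405, plus strand), a membrane protein that resembles the type I receptor but has no kinase domain, measured 3.96, 3.42, 2.09 and 3.28 CPM in WT livers and 2.36, 2.01, 2.87 and 2.64 CPM in HKO livers. WT replicate 3 lay among the HKO livers, and the other WT livers were above all of them. Its log2 fold change was -0.35 (SE 0.25, edgeR adjusted p = 0.487), and the 95% interval of the fold was 0.539 to 1.14.

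**Figure D2:**
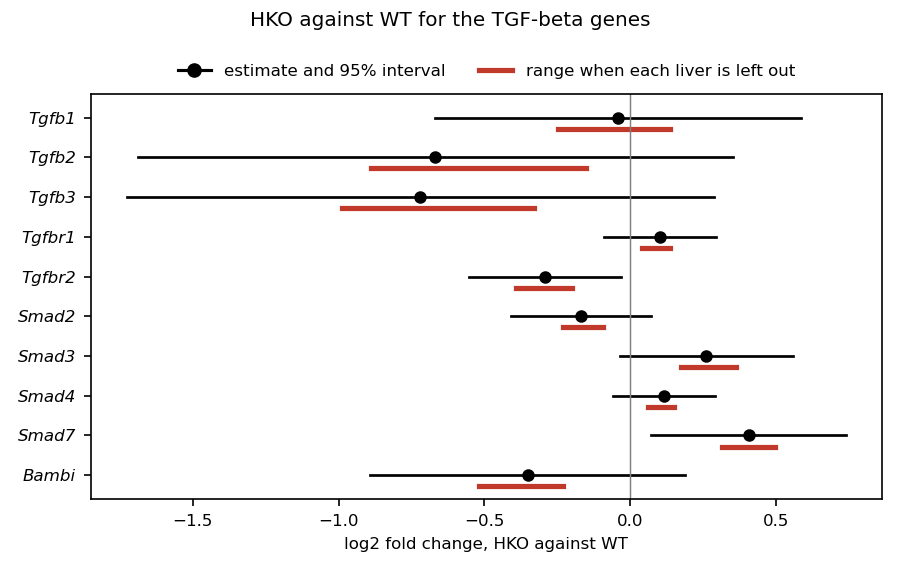
Log2 fold change of the 10 genes, HKO against WT, from edgeR, with its 95% interval in black and, in red, the range of estimates when each of the 8 livers was left out in turn. The unadjusted intervals of Tgfbr2 and Smad7 leave out 0, those of Tgfb2 and Tgfb3 are the widest, and the red range of Tgfb1 lies on both sides of 0.

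How much the counts could show differed among the genes. For 5 of them, Tgfbr1, Tgfbr2, Smad2, Smad3 and Smad4, the unadjusted 95% interval of the reported fit lay within a 1.5-fold change in either direction. The lower limit of Tgfbr2, 0.682, and the upper limit of Smad3, 1.47, were close to that bound. Intervals under other settings are not given, so larger differences are not excluded. For the other 5, Tgfb1, Tgfb2, Tgfb3, Smad7 and Bambi, the interval reached to a 1.5-fold change or beyond. In whole liver, fewer cells of a type and less RNA per cell cannot be told apart.

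Levels of different genes were compared per kilobase of annotated exon. In WT livers Smad4 led with 15.4 CPM per kilobase, followed by Tgfbr1 with 6.70 and Tgfbr2 with 4.395 CPM per kilobase. Smad2 followed with 3.16, Smad7 with 2.49, Smad3 with 2.01 and Tgfb1 with 1.61 CPM per kilobase. Bambi, Tgfb3 and Tgfb2 were lowest, at 0.628, 0.345 and 0.224 CPM per kilobase. The ranges over the 4 WT livers overlapped between the neighbours Smad2 and Smad7, Smad7 and Smad3, and Smad3 and Tgfb1, and again between Bambi and Tgfb3 and between Tgfb3 and Tgfb2, whereas Smad4, Tgfbr1 and Tgfbr2 were each separate from the next gene. In HKO livers the order of the means was the same except that Smad7, at 3.295 CPM per kilobase, stood above Smad2, at 2.82 CPM per kilobase.

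Ratios between genes of the same liver do not depend on library scaling. Of the 45 pairs among the 10 genes, 2 had ratios that did not overlap between the genotypes, against 12.3% of all pairs of tested genes with counts in every liver, and these were picked after their values had been seen, so no test is given. Tgfbr1 over Tgfbr2, the balance of the 2 receptor types, was 1.02, 1.15, 1.29 and 1.37 in WT and 1.60, 1.69, 1.48 and 1.55 in HKO livers. Every HKO liver thus held more type I relative to type II receptor transcript than any WT liver, with means of 1.21 ± 0.155 and 1.58 ± 0.0885 (SD, n = 4 each). Tgfbr2 over Smad7, the ligand-binding receptor against the inhibitor, was 4.22, 3.94, 2.70 and 2.72 in WT and 1.76, 1.86, 2.19 and 2.39 in HKO livers, with means of 3.40 ± 0.801 and 2.05 ± 0.293 (SD, n = 4 each). Both ratios contain Tgfbr2.

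**Figure D3:**
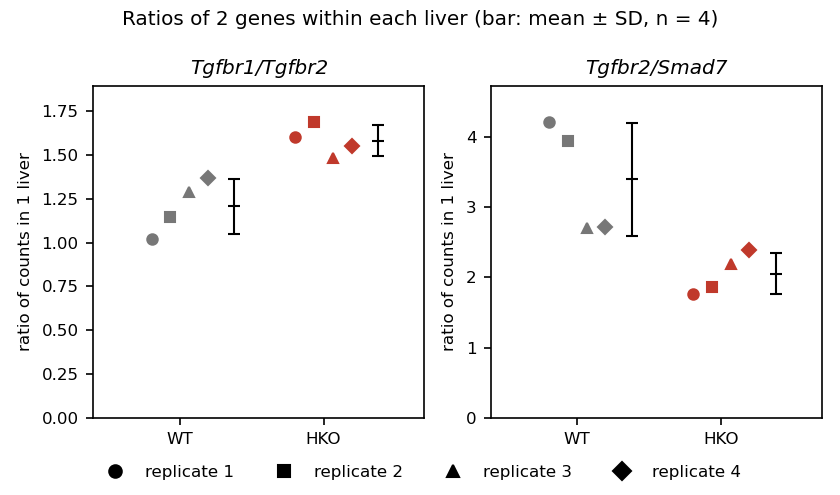
Ratio of the counts of Tgfbr1 to Tgfbr2 and of Tgfbr2 to Smad7 in each liver, on axes that start at 0, with WT livers in grey, HKO livers in red, a symbol for each replicate number and the mean ± SD (n = 4) in black. In the first panel the HKO livers, from 1.48 to 1.69, lie above the WT livers, and in the second panel, from 1.76 to 2.39, they lie below them. These are the 2 of 45 pairs without overlap, picked after their values had been seen. Of all pairs of tested genes with counts in every liver, 12.3% had no overlap.

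The wider pathway was described with lists of genes around this core, to be read beside the shares of all genes, of which 5.15% were called, 1.71% higher and 3.44% lower in HKO livers, and their median log2 fold change of 0.01. Over these lists 102 of 118 listed genes were tested, and 13 were called, 2 higher and 11 lower. The median log2 fold change lay between -0.02, for latent storage and release, and 0.21, for the accessory receptors, in every list other than the TGF-beta target genes. The proteins that store and release latent TGF-beta, such as the LTBPs and the αv integrins, had 1 of 15 tested genes called, with a median log2 fold change of -0.02. This was Tgm2, transglutaminase 2, which crosslinks the latent complex to the matrix, at 86.1, 104, 85.01 and 69.5 CPM in WT livers and 55.8, 57.6, 68.2 and 66.0 CPM in HKO livers. All HKO livers were below all WT livers, a log2 fold change of -0.48 (SE 0.12, edgeR adjusted p = 0.0382), and the call was kept in 2 of the 8 fits without a liver. It was also lost with limma-voom (adjusted p = 0.0561) and in edgeR with the replicate number as a block (adjusted p = 0.0982). DESeq2 and the other scalings and filters kept it.

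Of the accessory receptors, a list that also holds receptor-associated proteins, the median was 0.21 and 0 of 8 were called by edgeR. Of these 8 genes 1 had an unadjusted p under 0.05, and DESeq2 called 1 and limma-voom 0. That gene, Tgfbrap1, had a log2 fold change of -0.31 (edgeR adjusted p = 0.0724) without overlap, and Tgfbr3, the coreceptor betaglycan, had one of 0.68 (edgeR adjusted p = 0.341) with overlap. Of the Smad partners and brakes, which include nuclear co-repressors and the ubiquitin ligases that remove Smads, with a median of 0.03, 0 of 23 were called by edgeR, 2 had an unadjusted p under 0.05, and DESeq2 called 1 and limma-voom 0. This gene was Fkbp1a, which encodes FKBP12, a protein that holds TGFBR1 inactive, with a log2 fold change of -0.38 (edgeR adjusted p = 0.0542). Ski, whose 8-base match is printed above, measured 23.2, 24.2, 22.6 and 21.5 CPM in WT livers and 27.8, 23.8, 31.0 and 28.6 CPM in HKO livers. All HKO livers but replicate 2 were above the WT livers, and the log2 fold change was 0.28 (SE 0.10, edgeR adjusted p = 0.131). Skil had a log2 fold change of 0.26 (edgeR adjusted p = 0.396), with HKO replicates 1 and 3 above the WT livers.

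The neighbouring BMP branch shares SMAD4 and SMAD7 with TGF-beta, and activins were read here beside the BMPs. Of the BMP Smads, with a median of 0.12, 0 of 4 were called and 0 had an unadjusted p under 0.05, with 0 calls by DESeq2 and limma-voom. Smad1 had a log2 fold change of 0.16 and Smad9 of 0.45 (edgeR adjusted p = 0.364 and 0.736), and that of Smad9 was -0.10 without HKO replicate 1, which held 24.7 CPM against 5.02 to 14.4 CPM in the other HKO livers.
Of the 18 tested BMP and activin ligands and antagonists, with a median of 0.14, 1 was called lower and 1 higher, the latter not reported here. The gene called lower, Inhbe, the activin E subunit that hepatocytes secrete, measured 119, 131.4, 131.2 and 100.5 CPM in WT livers and 64.6, 66.3, 78.8 and 45.9 CPM in HKO livers, all HKO livers below all WT livers. Its log2 fold change was -0.91 (SE 0.15, edgeR adjusted p = 0.00921), and it was called in all 8 fits without a liver. Of the BMP and activin receptors, with a median of 0.06, 1 of 8 was called, the type II activin receptor gene Acvr2b, which rose from 7.01 ± 0.345 to 11.7 ± 3.41 CPM (SD, n = 4 each) with a log2 fold change of 0.74 (edgeR adjusted p = 0.0382). This call was kept in 1 of the 8 fits. It was also lost with limma-voom (adjusted p = 0.0630) and in edgeR with total count scaling (adjusted p = 0.0832) or the replicate number as a block (adjusted p = 0.0658). DESeq2 and the other scalings and filters kept it.

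Several genes that TGF-beta is known to regulate in other systems fell. Of the 23 tested, 0 were called higher and 9 lower, against 1.71% and 3.44% of all genes, and the median log2 fold change was -0.56 against 0.01. Several of them are also regulated by other pathways, and earlier results of these data, among them those of the collagens, were known when the list was chosen, so the count is not independent evidence of a direction.
Col1a1 and Col1a2, the chains of type I collagen, fell by 2.81 and 1.96 on the log2 scale (edgeR adjusted p = 0.00755 and 0.0131). Col1a1 measured 26.8, 10.3, 11.5 and 17.7 CPM in WT livers and 1.95, 3.39, 2.70 and 1.28 CPM in HKO livers, every HKO liver below every WT liver. Cdkn1a, the cell cycle inhibitor p21, fell by 2.17 (edgeR adjusted p = 0.0485), with 4.05, 8.37, 9.39 and 6.37 CPM in WT livers and 2.76, 1.697, 1.52 and 0.170 CPM in HKO livers. The value of HKO replicate 4 is 2 counts, below the limit of 3, and the call of Cdkn1a was kept in 2 of the 8 fits without a liver and lost without the filter on low counts (adjusted p = 0.0967). Another 5 genes called lower, named after their values were seen, were Col3a1, a fibrillar collagen, Loxl2, a collagen crosslinking enzyme, the cytoskeletal genes Tpm1 and Vim, and Jun, a transcription factor subunit, with log2 fold changes from -1.87 for Col3a1 to -0.56 for Jun. Without 1 liver 4 to 7 genes of the list were called, the fewest without WT replicate 1 or 2, and Col1a1, Col1a2 and Col3a1 were called in all 8 fits.

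Not all targets moved this way. Ccn2, the matricellular protein CTGF, measured 8.59, 2.30, 6.41 and 4.66 CPM in WT livers and 11.7, 4.63, 2.70 and 2.30 CPM in HKO livers. Its values covered the same range in both genotypes, a log2 fold change of -0.03 (SE 0.61, edgeR adjusted p = 0.986), and the sign turned in 5 of the 8 fits without a liver. The summed level of the target list was higher in HKO livers, 1892 to 1994 CPM, than in WT livers, 1774 to 1877 CPM, and its largest part is Fn1, fibronectin, which hepatocytes secrete to plasma. Fn1 measured 1213 ± 30.3 CPM in WT livers and 1470 ± 5.83 CPM in HKO livers (SD, n = 4 each), or a log2 fold change of 0.28 that edgeR did not call (adjusted p = 0.0695) and DESeq2 and limma-voom did. Of the BMP targets, with a median of 0.19, 0 of 7 were called by edgeR, 1 had an unadjusted p under 0.05, and DESeq2 and limma-voom called 0. Hamp, hepcidin, which BMP6 induces in hepatocytes, measured 96.0, 181, 274 and 309 CPM in WT livers and 464, 641, 352 and 233 CPM in HKO livers, with a log2 fold change of 0.97 (edgeR adjusted p = 0.312). Atoh8 had a log2 fold change of 0.43 (edgeR adjusted p = 0.132) without overlap.

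**Figure D4:**
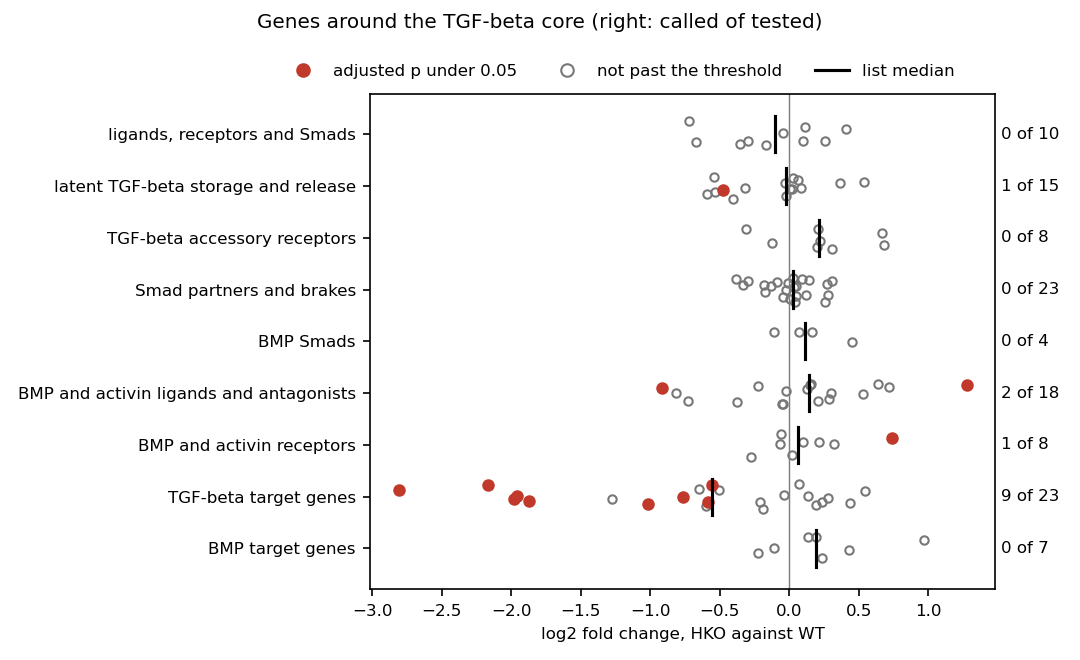
Log2 fold change of every tested gene of the core and of the lists around it, HKO against WT, with genes at an adjusted p under 0.05 as filled red points, the others as open grey points, the list median as a black bar and the number called of the number tested at the right. The core has 0 of 10 called, and the TGF-beta target genes hold 9 of the 13 calls, all below 0.

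Because the members of the core are made by different cells, the markers of liver cell types were read in the same fit. Of the hepatocyte markers 4 of 8 were called higher, Cps1, Tat, Fga and Hnf4a, against 1.71% of all genes, with log2 fold changes of 1.26, 0.87, 0.54 and 0.36 and a list median of 0.42. Without 1 liver 2 to 4 of them were called, Cps1 and Tat in all 8 fits and Hnf4a in 1 of 8, and Hnf4a was not called under total count scaling (adjusted p = 0.159). Of the 8 hepatocyte markers 6 lay above 0 and 2 below. Their summed levels overlapped, at 78940 to 113000 CPM in WT livers and 70620 to 124100 CPM in HKO livers. Stellate cell markers, from the cell type that makes most collagen, had 0 of 15 called, 0 at an unadjusted p under 0.05 and 0 by DESeq2 or limma-voom, with a median log2 fold change of -0.01, and they summed to 502 to 621 CPM in WT livers and 448 to 671 CPM in HKO livers.
Of the Kupffer cell and macrophage markers 2 of 11 were called lower, against 3.44% of all genes, with a list median of -0.03. They were Gpnmb, at 0.767 to 1.49 CPM in WT livers and at no more than 2 counts in any HKO liver, and Ccr2, which fell from 5.23 to 2.97 CPM. Gpnmb was called in all 8 fits without a liver and Ccr2 in 1 of 8. The sum of that list ranged from 111 to 274 CPM in WT livers and from 81.5 to 247 CPM in HKO livers, lowest in HKO replicate 2. The sinusoidal endothelial markers had 0 of 11 called, 0 at an unadjusted p under 0.05 and 0 by the other tools, a median log2 fold change of 0.48, and sums of 122 to 370 CPM in WT livers and 179.1 to 430 CPM in HKO livers.
Cholangiocyte markers had 0 of 3 and lymphocyte markers 0 of 2 tested genes called by edgeR, with 0 and 1 at an unadjusted p under 0.05, and DESeq2 called 1 lymphocyte gene, Cd4. The cholangiocyte sum was 110.8 CPM in HKO replicate 2 and 30.9 to 53.3 CPM in the other livers. The 4 listed platelet markers, from cells that release TGFB1, were too low to be tested and summed to 0.694 to 2.81 CPM. The part of these cell types in the levels of the 10 genes was not tested.

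**Figure D5:**
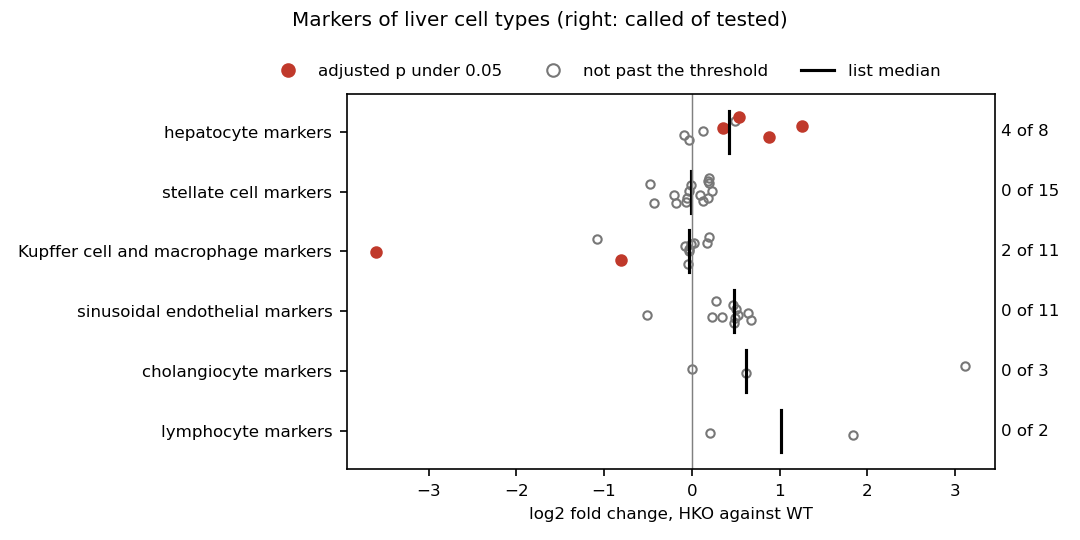
Log2 fold change of every tested marker gene of liver cell types, HKO against WT, with genes at an adjusted p under 0.05 as filled red points, the others as open grey points, the list median as a black bar and the number called of the number tested at the right. Calls were made for 4 hepatocyte markers, all above 0, and 2 macrophage markers, both below 0, and for 0 of 15 stellate cell and 0 of 11 sinusoidal endothelial markers.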

How the data were processed

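Total RNA from 8 perfused livers was sequenced. Per the labels, rRNA was depleted and a small RNA kit is named for the same libraries, which leaves the library type unclear. The authors aligned the reads with STAR and deposited estimated counts per gene from Partek's expectation-maximization quantification, without normalization, in which reads that match several genes are split. Versions, and whether counting used strand, are not given in the sources used here.

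Groups and replicate numbers came from the labels. The estimated counts were rounded and tested with edgeR 4.0.16 in R 4.3.3 (TMM scaling, default expression filter with a minimum count of 10, robust quasi-likelihood test, Benjamini-Hochberg adjustment over 12395 genes, threshold 0.05). Standard errors (SE) were derived from each log2 fold change and its F value. The study names an adjusted p, and its count model is not given in the sources used here. Alternatives were upper quartile, total count or RLE scaling, DESeq2 1.42.0, limma-voom from limma 3.58.1, a replicate block, no filter, a minimum of 10 counts in all livers, and leaving out each liver. The models were tested on 1 simulated data set, in which few genes changed, each by 1 or more on the log2 scale. There unchanged genes made up 10.6% of the calls by edgeR, 20.3% by DESeq2 and 8.94% by limma-voom, all above the threshold of 0.05. Simulated log2 fold changes of 1 were recovered at 74%, 76% and 68% by these tools in that order. Calls close to the threshold, and calls by DESeq2 alone, are to be read with these shares in mind. The shares belong to that simulation and were not estimated for the real calls, and smaller changes were not simulated. The p-values set the difference between the genotypes against the spread between these mice.

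Genes were named by rule: the 10 core genes; from other lists the called genes, up to 4 of largest change per direction, or without a call the 2 of smallest adjusted p; and Ski, Skil and Ccn2. Some genes that this rule names are not reported here. The core genes, lists and this rule were chosen with earlier results of these data known. Coordinates are as listed, on GRCm38, where 65.3% of 17789 matched symbols end 1 base beyond RefSeq. The 3′UTRs and exon lengths are from GENCODE M21. Of the deposited values 86.1% are whole to within 0.005.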

Additional observations from a re-analysis of the deposited data

Results flagged for a closer look

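Among 120 groups of 4 livers of a genotype (the levels of the named genes, the summed levels of the lists and library measures), 9 held a liver far from the other 3 by Dixon's criterion, where chance gives about 6. Tgfbr2 was the only gene of the core among them, with 42.9 CPM in WT replicate 1 where the remaining WT livers held 32.6 to 34.3 CPM. WT replicate 1 also had a sum of 1877 CPM over the TGF-beta target genes, against 1774 to 1785 CPM. WT replicate 3 held 49.1 CPM of Tgfbrap1 against 43.9 to 44.6 CPM, 470.9 CPM of Hnf4a against 434 to 441 CPM, and 38.6 CPM of Fcgr2b, an endothelial marker, against 16.6 to 16.9 CPM.

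Among HKO livers, replicate 1 held 7.28 CPM of Pdgfrb, a stellate cell marker, against 3.78 to 4.34 CPM. HKO replicate 2 held 16.5 CPM of Epcam against 0.450 to 1.02 CPM, and its macrophage markers summed to 81.5 CPM against 229 to 247 CPM. In HKO replicate 3 the accessory receptors summed to 620.1 CPM against 313 to 340 CPM, of which Nrp1 made up 356 CPM.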

How the results depend on the processing

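The 10 core genes were called in 0 of the 16 alternatives to the reported fit. Their direction was kept in 78 of 78 estimates from other models, scalings and filters and in 74 of 78 estimates without a liver, and the 4 exceptions all concern Tgfb1, which ranged from -0.25 to 0.14. Tgfb2 and Tgfb3 could not be tested with at least 10 counts in every liver, nor could Tgfb2 in 2 of the fits without a liver. Smad9 ranged from -0.10 to 0.71 and Ccn2 from -0.77 to 0.25 without a liver.

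Over all genes the 638 calls became 1014 with DESeq2 and 222 to 599 without a liver, with 222 without WT replicate 2, 293 without WT replicate 1 and 369 without HKO replicate 4. Total count scaling shifted the median of all genes from 0.01 to -0.08 and gave 119 higher and 628 lower calls in place of 212 and 426. The 13 pathway calls became 5 to 10 without a liver. The mice that share a replicate number are different animals whose deviations did not move together (correlations from -0.15 to 0.01). With the number as a block 470 genes were called, 0 of them in the core and 7 in the pathway lists. The cause of these shifts was not tested. Counts were lowest for Tgfb2, Tgfb3, Bambi and Tgfb1, and the parts of depth and of spread between mice in their wide intervals were not tested.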
